A study of Canis lupus familiaris with 8 samples.

Results

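SDCBP2, PRSS35, KANK3 and ADGRF4 are 4 genes of MDCK I cells, a dog kidney epithelial cell line, that were picked from 32704 annotated genes for large rises of their transcripts at 500 mOsm or large falls with both Nfat5-siRNAs. RNA sequencing covered 8 libraries in 4 groups of 2. Neg-siRNA (300 mOsm) cells grew in normal medium, and Neg-siRNA (500 mOsm) cells had raffinose, which added 200 mOsm, for the last 24 h. Nfat5-1-siRNA (500 mOsm) and Nfat5-2-siRNA (500 mOsm) cells had the same raffinose and 1 of 2 siRNAs against Nfat5. All 8 libraries came from siRNA-treated cells, at 100 nM. The siRNA of the Neg groups is directed at Slc22a6, which the labels describe as not expressed in this line. No group without siRNA and no Nfat5-siRNA group at 300 mOsm is among these libraries. In every group replicate 1 came from passage 15 and replicate 2 from passage 17, and the libraries held 34564103 to 46043788 counts.

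Nfat5, also called TonEBP, is a transcription factor of the Rel family. In kidney cells it accumulates in the nucleus when the medium becomes hypertonic and switches on genes for carriers and enzymes that load the cell with organic osmolytes. It is best known from the renal medulla, where cells live in concentrated fluid. The 4 genes described here have other roles. SDCBP2 encodes syntenin-2, an adaptor with a tandem of PDZ domains that binds membrane phosphoinositides. PRSS35 encodes a secreted protein of the trypsin-like serine protease family that is predicted to lack protease activity. KANK3 belongs to a family of ankyrin-repeat adaptors that act at the cell cortex and at adhesion sites. ADGRF4 is an adhesion G protein-coupled receptor of subfamily F, whose ligand is not established.

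In CanFam 3.1, the dog assembly of the count table, the 4 genes lie in 4 separate places on 3 chromosomes. SDCBP2 (ENSCAFG00000006811) spans chr24:19686909-19695543 on the plus strand, with 8 exons that cover 927 bases. PRSS35 (ENSCAFG00000002947) is a model of 1 exon of 1239 bases at chr12:43904203-43905441 on the plus strand. KANK3 (ENSCAFG00000029570) spans chr20:52903547-52912871 on the minus strand, with 12 exons covering 2624 bases. ADGRF4 (ENSCAFG00000002095) spans chr12:15748181-15767598 on the plus strand, with 8 exons covering 2088 bases. No other annotated gene overlapped any of the 4 spans, so no second gene of the annotation contributes counts to them, although the counting ignored strand. In the RefSeq annotation of another dog assembly (UU_Cfam_GSD_1.0), SDCBP2 lies beside SNPH, PRSS35 beside SNAP91, KANK3 between RPS28 and ANGPTL4, and ADGRF4 between ADGRF2, a receptor of its own subfamily, and OPN5.

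The deposited values are read counts per gene. They are given below as counts and as CPM, the count scaled to the size and composition of its library. The 4 genes were picked on the comparisons of 300 with 500 mOsm and of each Nfat5-siRNA with Neg-siRNA (500 mOsm), so their values in these 3 comparisons are a description without a test. With 2 libraries against 2, an exact two-sided permutation test of a single gene cannot go below p = 0.333. In these bulk samples fewer cells that express a gene and less RNA per cell cannot be told apart.

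SDCBP2 was almost absent at 300 mOsm and among the highest risers at 500 mOsm. Its Neg-siRNA (300 mOsm) libraries held 0 and 2 counts (0 and 0.0592 CPM). The Neg-siRNA (500 mOsm) libraries held 781 and 898 counts (21.2 and 22.5 CPM). With Nfat5-1-siRNA 67 and 57 counts were left (1.44 and 1.21 CPM), and with Nfat5-2-siRNA 41 and 39 counts (0.976 and 0.924 CPM). The 4 groups did not overlap, and within each group the passages lay close together. From the summed counts, scaled to the size and composition of the libraries, the ratio of 500 to 300 mOsm was 855. Its 95% counting interval of 236 to 7068 reflects the 2 counts at 300 mOsm. Read mates may have been counted separately, and with 2 counts taken per fragment the interval was 153 to 33799. The fall from Neg-siRNA (500 mOsm) was -4.04 ± 0.31 (log2 fold change ± SE) with Nfat5-1-siRNA and -4.52 ± 0.32 with Nfat5-2-siRNA, which left 6.07% and 4.35% of the level.

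PRSS35 had no count in either 300 mOsm library. A count of 0 allows up to 3 counts, or 0.0675 and 0.0888 CPM in these libraries, and such limits cover counting error only. The Neg-siRNA (500 mOsm) libraries held 714 and 659 counts (19.4 and 16.5 CPM). The mean at 500 mOsm was therefore at least 229.5-fold higher, taking 3 counts per library as the limit at 300 mOsm. If mates were counted separately the limit is 6 counts, or 0.135 and 0.178 CPM, and the bound 115-fold. Nfat5-1-siRNA left 244 and 151 counts (5.24 and 3.21 CPM), and Nfat5-2-siRNA left 197 and 173 counts (4.69 and 4.10 CPM). Both siRNA groups lay below both Neg-siRNA (500 mOsm) libraries and above both 300 mOsm libraries, and they overlapped each other. The log2 falls were -2.08 ± 0.28 and -2.03 ± 0.28, and 23.6% and 24.5% of the level remained.

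KANK3 was expressed at 300 mOsm, and with the Nfat5-siRNAs it was at about that level again. At 300 mOsm it had 74 and 69 counts (1.66 and 2.04 CPM). At 500 mOsm with Neg-siRNA it had 920 and 1171 counts (25.0 and 29.3 CPM), the highest CPM of the 4 genes. Nfat5-1-siRNA gave 68 and 63 counts (1.46 and 1.34 CPM) and Nfat5-2-siRNA 62 and 74 counts (1.48 and 1.75 CPM). The Neg-siRNA (500 mOsm) libraries stood alone, and the other 6 libraries lay between 1.34 and 2.04 CPM. The rise was 3.88 ± 0.25 (log2 ± SE), or 15.0-fold in passage 15 and 14.4-fold in passage 17. The falls were -4.27 ± 0.25 and -4.07 ± 0.25, and 5.16% and 5.95% of the level remained.

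ADGRF4 had the smallest rise of the 4 and the widest spread between passages. At 300 mOsm it had 178 and 59 counts (4.0 and 1.75 CPM), and at 500 mOsm with Neg-siRNA 504 and 510 counts (13.7 and 12.8 CPM). Nfat5-1-siRNA gave 132 and 48 counts (2.84 and 1.02 CPM) and Nfat5-2-siRNA 59 and 28 counts (1.40 and 0.663 CPM). Both Neg-siRNA (500 mOsm) libraries were above the other 6. The Nfat5-1-siRNA libraries overlapped those at 300 mOsm and those with Nfat5-2-siRNA, while both Nfat5-2-siRNA libraries were below both at 300 mOsm. The rise was 2.19 ± 0.47 on the log2 scale, 3.42-fold in passage 15 and 7.31-fold in passage 17. The falls were -2.78 ± 0.48 and -3.67 ± 0.51, and 14.6% and 7.82% of the level remained.

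**Figure D1:**
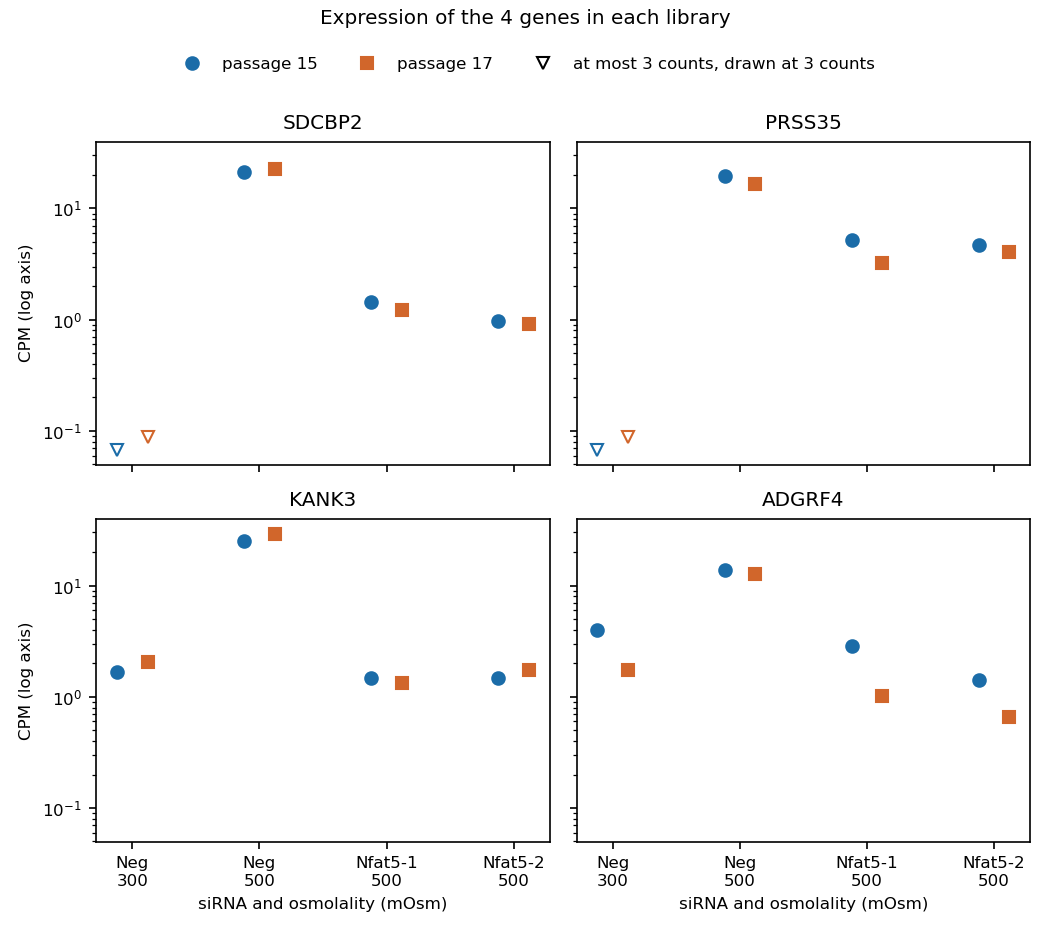
CPM (log axis) of each gene in each of the 8 libraries, by group, with circles for passage 15 and squares for passage 17; open triangles mark libraries with at most 3 counts, drawn at the CPM of 3 counts. All 4 genes peaked in Neg-siRNA (500 mOsm), at 12.8 to 29.3 CPM, and only SDCBP2 and PRSS35 were at or near 0 at 300 mOsm.

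In all 4 genes both Neg-siRNA (500 mOsm) libraries were thus above the other 6, which their choice favoured. The share of all genes with this separation is not given here, and the shares below are of edgeR calls. Of the 19835 genes tested with edgeR's quasi-likelihood test (Benjamini-Yekutieli adjusted p under 0.05), 11.3% were higher at 500 than at 300 mOsm. In the siRNA comparisons 4.53% were lower with Nfat5-1-siRNA and 7.38% with Nfat5-2-siRNA, and 1.64% met all 3 calls. With the passage as a block these 4 shares were 17.3%, 11.9%, 15.3% and 4.41%. The 4 genes were chosen on these contrasts, so nothing is read from their place against these shares. A set of 285 genes met all 3 calls, moved in these directions within each passage, and had at least 10 CPM in Neg-siRNA (500 mOsm). Among these the fitted rise of PRSS35 ranked 1 and that of SDCBP2 ranked 3. These ranks are not firm, since PRSS35 had 0 counts at 300 mOsm and its fitted value depends on the prior count of the fit. Its lower bound of 229.5-fold, taken from means, is below the ratio of 855 of SDCBP2, taken from summed counts. The fitted log2 rise of SDCBP2, 9.57, was 8.41 and 12.87 without replicate 1 and replicate 2 of Neg-siRNA (300 mOsm), which spans the 9.01 of rank 5 and the 10.10 of rank 2. KANK3 ranked 39 and ADGRF4 108 by the rise. By the mean fall with the siRNAs SDCBP2 ranked 2, KANK3 3, ADGRF4 6 and PRSS35 40. These ranks are not firm either. The mean falls at ranks 1 to 4 were -4.42, -4.28, -4.17 and -4.00 (log2), while each fall of the 4 genes had an SE of 0.25 to 0.51. Without replicate 2 of Nfat5-1-siRNA the fall of ADGRF4 with that siRNA was -2.22, against -2.78 with all libraries. The gene next below ADGRF4 was AQP1, a water channel, with a mean fall of -3.19 against -3.22 for ADGRF4 (log2).

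The level left with the siRNAs, set against 300 mOsm, separated the genes into pairs, though they were picked for large rises or large falls in these libraries. SDCBP2 remained above its 300 mOsm level. The ratio of scaled summed counts was 51.9 (95% counting interval 14.1 to 433) with Nfat5-1-siRNA and 37.2 (9.95 to 312) with Nfat5-2-siRNA. PRSS35 was at least 54.1-fold and at least 56.2-fold above it. With 2 counts taken per fragment the intervals of SDCBP2 were 8.97 to 2081 and 6.30 to 1504, and the bounds of PRSS35 27.1-fold and 28.1-fold. KANK3 was at 75.6% and 87.1% of its mean at 300 mOsm, and in each passage each siRNA library was below the 300 mOsm library. For Nfat5-2-siRNA, however, the 1.75 CPM of passage 17 exceeded the 1.66 CPM of passage 15 at 300 mOsm, so this group overlapped that at 300 mOsm. Both Nfat5-1-siRNA libraries of KANK3, at 1.46 and 1.34 CPM, were below both at 300 mOsm. ADGRF4 was at 67.1% and 36.0% of its mean at 300 mOsm. Within passages it was at 70.8% and 58.5% with Nfat5-1-siRNA, and with Nfat5-2-siRNA at 35.1% and 38.0%. As a share of the rise, both as log2 values, the mean fall came to 16.4% for PRSS35, 44.7% for SDCBP2, 108% for KANK3 and 147% for ADGRF4. The first pair of these shares rests on fitted rises from libraries at or near 0 counts and depends on the prior count of the fit.

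The organic osmolyte genes SLC6A6 (taurine carrier), SLC6A12 (betaine carrier), SLC5A3 (myo-inositol carrier) and AKR1B1 (aldose reductase, which makes sorbitol) give the scale of the usual Nfat5 response in these libraries. With Nfat5-1-siRNA 21.6% to 40.9% of their Neg-siRNA (500 mOsm) level remained, and with Nfat5-2-siRNA 23.3% to 36.1%. AKR1B1 kept 21.6% and 23.3%, close to the 23.6% and 24.5% of PRSS35. SDCBP2, KANK3 and ADGRF4 kept less than any of the 4 osmolyte genes. Being picked for their falls, they give no test of that difference. None of the osmolyte genes fell to its level at 300 mOsm, the nearest being SLC6A6 at 4.57 times that level with Nfat5-2-siRNA. All 4 were called higher at 500 mOsm (against 11.3% of all tested genes) and lower with Nfat5-2-siRNA (7.38%), and 3 were called lower with Nfat5-1-siRNA (4.53%). SLC5A3 was not (edgeR adjusted p = 0.0716), and with the passage as a block it was (4.28e-07). Their symbols were paired through a list the study made on these libraries, so these calls are not independent evidence.

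**Figure D2:**
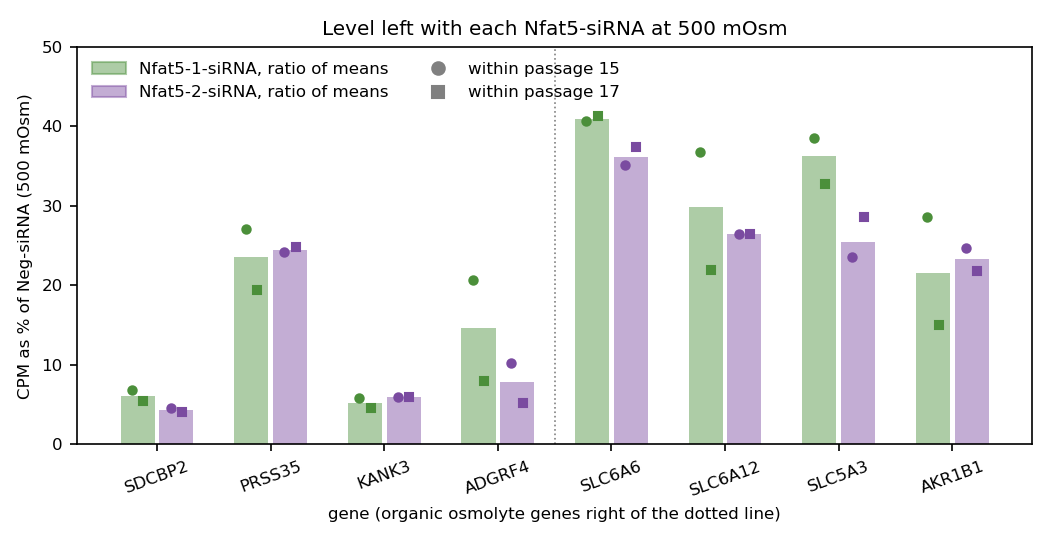
CPM with Nfat5-1-siRNA (green) and Nfat5-2-siRNA (purple) as a percentage of Neg-siRNA (500 mOsm), for the 4 genes and 4 organic osmolyte genes; bars are ratios of group means, and circles and squares are the ratios within passage 15 and passage 17. SDCBP2 and KANK3 kept 4.35% to 6.07%, PRSS35 kept 23.6% and 24.5%, and the osmolyte genes kept 21.6% to 40.9%.

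Divided by the exon length, the 4 levels kept a clear order only in Neg-siRNA (500 mOsm). There SDCBP2 had 23.6 ± 0.99 CPM per kb (SD, n = 2), PRSS35 14.5 ± 1.6, KANK3 10.3 ± 1.2 and ADGRF4 6.33 ± 0.31, and no neighbours in this order overlapped. These levels were at the percentiles 78.2, 70.1, 64.7 and 57.7 of all tested genes, which is mid-range expression. By CPM without the length the percentiles were 63.9, 61.2, 66.9 and 57.5, with KANK3 highest. The order per kb thus depends on the annotated exon lengths, and whether these gene models are complete was not checked. At 300 mOsm ADGRF4, at 1.38 ± 0.76 CPM per kb, and KANK3, at 0.706 ± 0.10, came before SDCBP2 and PRSS35, which were at or near 0. The passages of ADGRF4 lay apart, at 1.92 and 0.836 CPM per kb, and both were above those of KANK3. With the siRNAs PRSS35 was highest, at 3.41 ± 1.2 CPM per kb with Nfat5-1-siRNA and 3.55 ± 0.34 with Nfat5-2-siRNA. SDCBP2 followed at 1.43 ± 0.17 and 1.02 ± 0.040. KANK3, at 0.534 ± 0.032 and 0.615 ± 0.075, could not be ordered against ADGRF4, at 0.924 ± 0.61 and 0.495 ± 0.25, since their libraries overlapped in both siRNA groups. ADGRF4 also overlapped SDCBP2 with Nfat5-1-siRNA.

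The difference between the Nfat5-siRNAs was tested as well, but not independently of the choice of the 4 genes. The choice used the falls with both siRNAs, in the same libraries, and large falls with both leave less room for a difference. The lack of a call is therefore not read as a result about the 4 genes. Of the 19835 genes 0.0403% were called in this comparison, and 4.94% with the passage as a block. None of the 4 genes was called, with an adjusted p of 1 for each (edgeR, Benjamini-Yekutieli) and unadjusted values of 0.0957 to 0.842. ADGRF4 had the largest difference, -0.90 (log2, Nfat5-2-siRNA minus Nfat5-1-siRNA, 95% interval -1.98 to 0.18), and it was lower with Nfat5-2-siRNA in both passages. With the passage as a block its adjusted p was 0.508, and without replicate 1 of Nfat5-1-siRNA the difference was 0.017. SDCBP2 differed by -0.48 (-1.16 to 0.20), and all 4 of its siRNA libraries kept the order of the siRNAs within and across passages. KANK3 differed by 0.20 (-0.33 to 0.74). PRSS35 differed by 0.056 (-0.54 to 0.65), and without replicate 2 of Nfat5-1-siRNA or replicate 1 of Nfat5-2-siRNA its sign turned, to -0.25 and -0.044. The intervals reach a 1.57-fold difference in PRSS35 and larger ones in the other 3 genes, so a like response to both siRNAs is not shown.

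The passage was not part of the choice of the 4 genes. Its test takes as error the spread of the passage difference between the 4 groups, not a spread between repeat cultures of a passage. Anything else that differed between the replicate sets cannot be told apart from the passage. Across the 4 groups, 3.29% of the genes differed between passages, and 2.02% were lower at passage 17. ADGRF4 was among the latter, with a difference of -0.89 ± 0.20 (log2 ± SE, 95% interval -1.29 to -0.50, edgeR adjusted p = 0.00968), or 1.86-fold lower at passage 17. It was lower at passage 17 in 4 of 4 groups. The ratio of passage 15 to passage 17 was 2.29 at 300 mOsm, 2.78 with Nfat5-1-siRNA and 2.12 with Nfat5-2-siRNA, but 1.07 in Neg-siRNA (500 mOsm), where the gene was highest. Whether the passage ratio differs between groups was not tested. The call was lost with the edgeR default filter on low counts (adjusted p = 0.514) and with DESeq2 (0.0950). It was also lost on leaving out either library of Neg-siRNA (300 mOsm), Nfat5-1-siRNA or Nfat5-2-siRNA, with adjusted p between 0.0650 and 0.301. The other 3 genes were not called, each with an adjusted p of 1. PRSS35 differed by -0.37 (95% interval -0.74 to -0.0020, unadjusted p = 0.0488), KANK3 by 0.17 (-0.16 to 0.51) and SDCBP2 by -0.012 (-0.43 to 0.41).

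**Figure D3:**
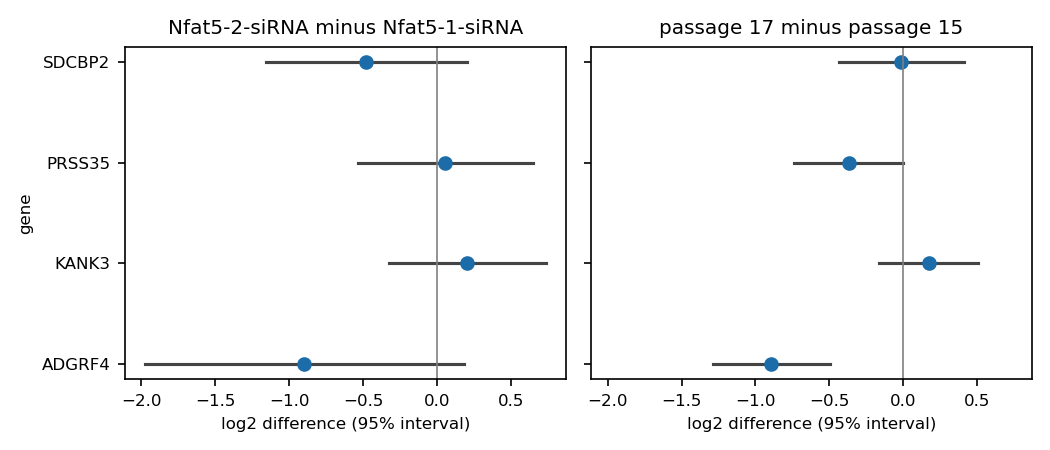
Log2 difference of each gene between the Nfat5-siRNAs (left) and between the passages (right), with points for the edgeR estimates and lines for their 95% intervals. Only the passage difference of ADGRF4, -0.89, was called after adjustment over all 19835 genes.

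Among themselves the 4 genes followed more than 1 profile. Over the 8 libraries, Pearson's r of log2 CPM was 0.926 between SDCBP2 and PRSS35 and 0.867 between KANK3 and ADGRF4. Across these pairs it was 0.781 for SDCBP2 and KANK3, 0.555 for SDCBP2 and ADGRF4, 0.510 for PRSS35 and KANK3, and 0.279 for PRSS35 and ADGRF4. Many other genes were closer than the partner in a pair. Of 8962 genes, PRSS35 ranked 360 by likeness to SDCBP2, and ADGRF4 ranked 332 by likeness to KANK3. The 4 genes were picked for large rises or large falls in these same libraries, so a split between profiles is partly built into the choice. The libraries also share their 4 conditions and 2 passages, so these values describe the profiles and were not tested.

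The genes most like each of the 4 were sought among the 8962 tested genes with at least 10 CPM in Neg-siRNA (500 mOsm). For SDCBP2 they were R3HCC1 (r = 0.997), LAMA3 (0.996), a laminin chain of epithelial basement membranes, and ENSCAFG00000020066 (0.995). Their changes were far smaller than that of SDCBP2, as LAMA3 went from 307 to 1623 CPM at 500 mOsm and to 705 and 717 CPM with the siRNAs. For PRSS35 they were HS3ST1 (r = 0.999), a heparan sulphate sulfotransferase, NR1H4 (0.998), the bile acid receptor FXR, and RCAN1 (0.997), an inhibitor of calcineurin. NR1H4 was at 0.852 CPM at 300 mOsm, 42.7 CPM at 500 mOsm, and 14.9 and 15.1 CPM with the siRNAs. For these genes, as for PRSS35, both siRNA groups lay between the 2 Neg-siRNA groups.

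For KANK3 the closest were INSIG1 (r = 0.996), which holds the sterol sensor complex in the endoplasmic reticulum, SEMA4B (0.986), a semaphorin, and ENSCAFG00000031738 (0.983). INSIG1 was at 231 CPM at 300 mOsm, 803 CPM at 500 mOsm, and 192 and 210 CPM with the siRNAs, so its siRNA means too were below that at 300 mOsm. For ADGRF4 they were NAV1 (r = 0.987), a microtubule-associated protein, ENSCAFG00000006542 (0.985) and ENSCAFG00000001990 (0.982). NAV1 was at 17.8 CPM at 300 mOsm, 32.4 CPM at 500 mOsm, and 15.5 and 12.5 CPM with the siRNAs. With rank correlation none of the 3 genes nearest SDCBP2 or PRSS35 remained among the nearest 3, and 1 of 3 remained for KANK3 and for ADGRF4. With a prior count of 0.5 in place of 2, 0 of 3 remained for SDCBP2, 1 for PRSS35, 3 for KANK3 and 2 for ADGRF4, so the lists of SDCBP2 and PRSS35 in particular depend on how values at or near 0 counts are treated.

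Chromosomal neighbours were described by taking the 3 nearest tested genes on each side, 24 in all. At 500 mOsm 3 of the 24 were called higher (12.5%, against 11.3% of all tested genes) and 1 lower (4.17% against 9.23%). With Nfat5-1-siRNA 3 were called lower (12.5% against 4.53%) and 0 higher, against 3.4% of all genes, with 1 higher at an unadjusted edgeR p under 0.05. With Nfat5-2-siRNA 5 were called lower (20.8% against 7.38%) and 0 higher, against 4.67% of all genes, with 2 higher at an unadjusted p under 0.05. With the passage as a block these counts were 6 higher and 2 lower at 500 mOsm, where 17.3% of all genes were then higher and 15.8% lower. They were 1 higher and 7 lower with Nfat5-1-siRNA (9.61% and 11.9% of all genes), and 11 lower and 0 higher with Nfat5-2-siRNA (45.8% lower, against 15.3% of all genes lower and 10.7% higher). The comparisons share the Neg-siRNA (500 mOsm) libraries.

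Of the 24 neighbours 1 met all 3 calls (4.17%, against 1.64% of all tested genes). It was ME1 (ENSCAFG00000002941), the cytosolic malic enzyme, which makes NADPH. It ends 114 kb before PRSS35 on chromosome 12, with another annotated gene between them. ME1 was at 222 CPM at 300 mOsm, 924 CPM in Neg-siRNA (500 mOsm), 341 CPM with Nfat5-1-siRNA and 235 CPM with Nfat5-2-siRNA. Its log2 fold changes were 2.06, -1.44 and -1.97 (edgeR adjusted p = 0.000508, 0.0191 and 0.00164). FKBP1A (ENSCAFG00000006795), an immunophilin that binds FK506, lies 46.3 kb before SDCBP2. It rose by 1.84 on the log2 scale at 500 mOsm (edgeR adjusted p = 9.22e-05) and fell by 1.00 with Nfat5-2-siRNA (0.0173). With Nfat5-1-siRNA its value of -0.82 was not called (0.0754), but with the passage as a block it was (3.72e-06). FKBP1A, ME1 and ENSCAFG00000002979, 482 kb beyond PRSS35, were then the 3 neighbours that met all 3 calls (12.5%, against 4.41% of all tested genes with the block).

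The genes closest to the 4 are described by their own values. ENSCAFG00000006822, 4.25 kb beyond SDCBP2, had 0 and 2 counts at 300 mOsm and 14 and 12 in Neg-siRNA (500 mOsm). Its log2 fold changes in the 3 comparisons were 3.53, -0.66 and -1.24. Beside PRSS35, ENSCAFG00000002951 (14.1 kb) had 0 and 2, then 15 and 11 counts, and changes of 3.55, -0.66 and 0.16. ENSCAFG00000037722 (27.5 kb) had 2 and 3, then 17 and 6 counts, and changes of 2.17, -1.79 and -4.37. None of these sparse genes was called, with or without the passage as a block. ENSCAFG00000038146, which ends 3.03 kb before SDCBP2, fell at 500 mOsm, by 1.42 on the log2 scale, where SDCBP2 was highest. It fell further with Nfat5-1-siRNA, by 1.98, and its value with Nfat5-2-siRNA was -1.40 (edgeR adjusted p = 0.0574, and 7.27e-05 with the passage as a block). ENSCAFG00000018497, which ends 1.62 kb before KANK3, had log2 fold changes of -0.55, -0.55 and -0.45, and it was called lower in all 3 comparisons only with the passage as a block (edgeR adjusted p = 0.00209, 0.00498 and 0.0372). ENSCAFG00000018506, 29.2 kb beyond KANK3, was not called at 500 mOsm (0.27) and fell with both siRNAs, by 1.45 and 0.88. Of the 6 neighbours of ADGRF4 0 were called, with 3 lower at an unadjusted edgeR p under 0.05 with Nfat5-2-siRNA, all 3 of them called with the passage as a block. With Nfat5-1-siRNA 1 of the 6, ENSCAFG00000002106, was higher by 1.09 (log2) and was called only with the block (edgeR adjusted p = 0.0419). The nearest of them, ENSCAFG00000033670 at a distance of 8.43 kb, had 0 and 0 counts at 300 mOsm and 4 and 6 counts in Neg-siRNA (500 mOsm). It was higher there at an unadjusted edgeR p of 0.0437 (0.0613 with the passage as a block) and was not called (adjusted p = 1).

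**Figure D4:**
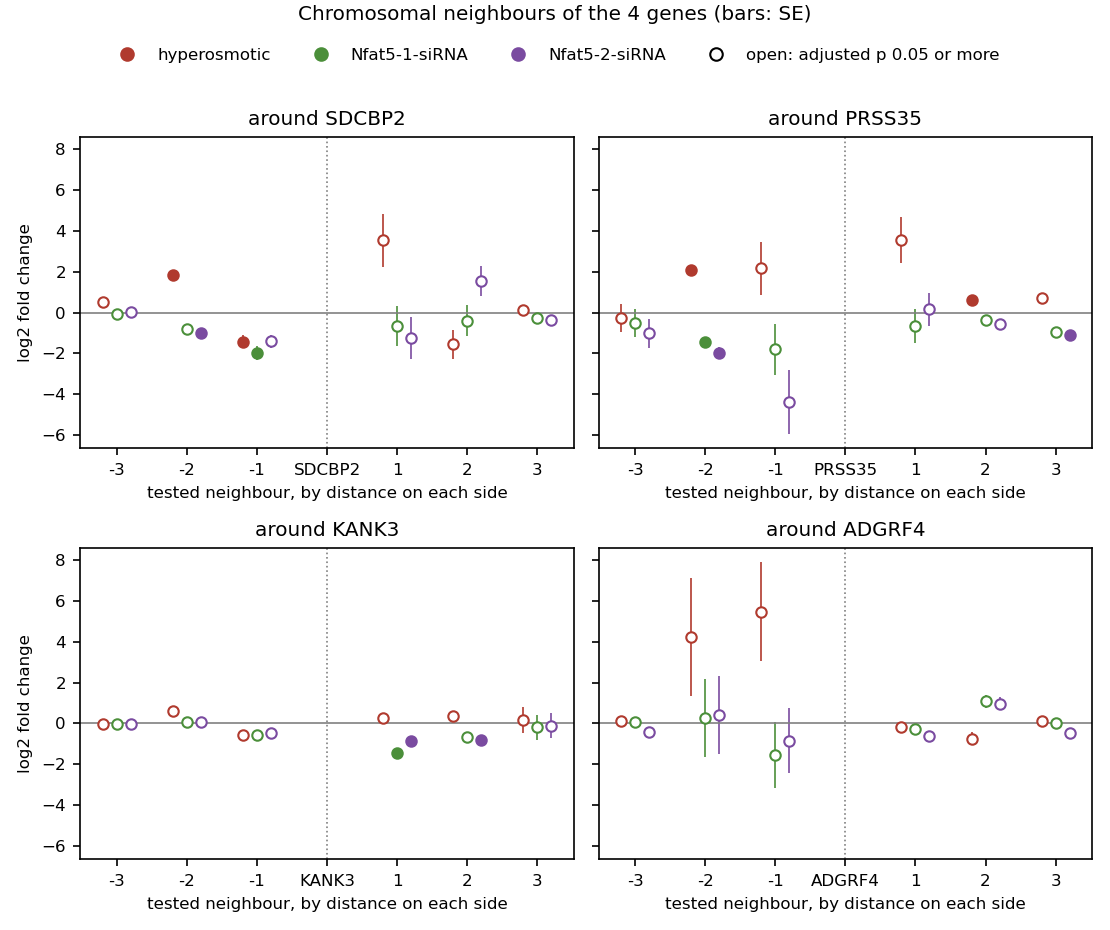
Log2 fold change with its SE of the 3 nearest tested genes on each side of the 4 genes, for 500 against 300 mOsm (red), Nfat5-1-siRNA (green) and Nfat5-2-siRNA (purple) against Neg-siRNA (500 mOsm); filled points were called. Beside PRSS35, the neighbour at position -2 is ME1, with 2.06, -1.44 and -1.97, the 1 gene of 24 called in all 3 comparisons.

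Other genes of the same families could be followed only where a symbol was paired with an identifier. These pairs come from genes the study had selected for significant changes at 500 mOsm and with both Nfat5-siRNAs, on these libraries. Calls of paired genes in these comparisons are thus largely set by that choice. Of 13 serine proteases and their inhibitors 5 were paired. PRSS23, a secreted protease related to PRSS35, went from 15.0 ± 2.6 CPM (SD, n = 2) to 57.3 ± 7.6 CPM at 500 mOsm, and to 16.7 ± 0.79 and 23.7 ± 2.3 CPM with the siRNAs. Its log2 fold changes were 1.94, -1.78 and -1.27, all called. FURIN, HTRA1 and the inhibitor SERPINE2 were also called higher at 500 mOsm and lower with both siRNAs, so 4 of the 5 met all 3 calls, against 1.64% of all tested genes. The study's selection of the paired genes used these libraries, so the share is not independent evidence. HPN, the membrane protease hepsin, was called lower in all 3 comparisons, from 232 to 154 CPM at 500 mOsm and to 88.0 and 78.9 CPM with the siRNAs.

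Of 13 genes linked to the KANK family and the cortical adhesion complex 1 was paired. KIF21A, a kinesin known to bind KANK1, rose from 3.83 ± 0.057 CPM (SD, n = 2) to 17.9 ± 2.4 CPM at 500 mOsm. It was higher still with the siRNAs, at 44.3 ± 8.8 and 41.7 ± 11 CPM, opposite to KANK3, and its log2 fold changes of 2.22, 1.31 and 1.22 were all called. None of 9 partners of the syntenins and none of 16 other adhesion G protein-coupled receptors was paired, and they were not analysed here. Nfat5 itself was not paired with an identifier, so its level was not analysed here and the labels were not checked against it.

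Markers of other cell types were checked in the same way. Of 10 epithelial markers 1 was paired, EZR, which links membrane and actin and is abundant in kidney epithelium. EZR was at 960 CPM at 300 mOsm, 593 CPM at 500 mOsm, and 807 and 1123 CPM with the siRNAs, opposite in direction to the 4 genes. It was called lower at 500 mOsm and higher with Nfat5-2-siRNA, and with Nfat5-1-siRNA only with the passage as a block (edgeR adjusted p = 0.460 without it and 0.0435 with it). Of 8 fibroblast markers 2 were paired. PDGFRA was the more abundant, at 34.1, 62.0, 32.2 and 30.9 CPM in the 4 groups, and THY1 was at 0.0296, 6.96, 0.867 and 1.04 CPM. Both were called higher at 500 mOsm and lower with both siRNAs, as the 4 genes were seen to move, against 1.64% of all tested genes that met all 3 calls. The study's selection of the paired markers used these libraries, so these calls are not independent evidence. The 1.64% is therefore no fair measure for them. Summed, they gave 36.6 and 31.6 CPM at 300 mOsm and 74.2 and 63.7 CPM in Neg-siRNA (500 mOsm). With the siRNAs the sums were 31.9 and 34.3 CPM, and 28.6 and 35.3 CPM. Of 5 endothelial markers 1 was paired, TIE1, which fell from 32.4 to 13.2 CPM at 500 mOsm and to 3.85 and 4.22 CPM with the siRNAs. None of 5 leukocyte markers was paired. The part of other cell types in the changes of the 4 genes was not tested.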

How the data were processed

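RNA was taken from MDCK I cells, and polyA libraries were sequenced as read pairs. Per the file headers and the submitters' processing notes, the authors mapped the reads to CanFam 3.1 with HISAT2 2.0.5 and deposited the counts that featureCounts 1.5.1 gave for each Ensembl gene over its exons, ignoring strand. The command held no option for counting pairs as fragments, so mates may have been counted separately. The deposited table also gives each gene's exon length in bases, which was used here for CPM per kb.

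The 4 genes, the gene lists and the tests were chosen with earlier results of these data known. Symbols came from a supplementary table of the study with 989 identifiers, of which 860 carried a symbol. Only its pairs of names were used.

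The 32704 genes were filtered to 19835 with a summed count of at least 5. They were fitted with edgeR 4.0.16 (R 4.3.3; TMM scaling, glmQLFit and glmQLFTest) over all 8 libraries in 4 groups, with Benjamini-Yekutieli adjustment and a threshold of 0.05. The SE of a log2 fold change was its size divided by the square root of the F statistic, and the 95% intervals follow from it. The edgeR fits were tested on simulated data. The passage was tested in a fit with group and passage. Counts above are as deposited, CPM uses TMM, and profiles used log2 CPM with a prior count of 2. Named genes were the 4 genes, the 3 genes most like each (Pearson's r), the 3 nearest tested genes on each side, and paired list members. The study's methods describe the sequencing as biological duplicates, which here are the 2 passages. The p-values of the group comparisons thus measure the spread between passages of 1 cell line. Those of the passage test measure the spread of the passage difference between groups. Replicates with the same number deviated together from their group means (r = 0.123 to 0.465 over 6 pairs of groups), and the labels give them the same passage. The numbers thus pair the libraries. The printed estimates and tests nevertheless come from the fit without a passage term, apart from the test of the passage itself, and the fit with the passage as a block was run as an alternative, given where it changed a call or clearly moved a count of calls.

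Alternatives were DESeq2 1.42.0, its size factors, other filters, Benjamini-Hochberg adjustment, a replicate block, fewer libraries, and leaving out each library.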

Additional observations from a re-analysis of the deposited data

How the results depend on the processing

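No alternative turned the direction of the 4 genes between 300 and 500 mOsm or between either Nfat5-siRNA and Neg-siRNA (500 mOsm). Depth limits the 300 mOsm values of SDCBP2 and PRSS35 (2 and 0 counts). The bounds and intervals with mates taken as counted separately were added after seeing the data. The fitted rise of PRSS35, 12.54 (log2), depends on the prior count and was 11.87 with DESeq2. The fall with Nfat5-2-siRNA, -2.03 for PRSS35 and -4.07 for KANK3, was -1.98 and -4.02 with DESeq2 size factors, -1.98 and -4.02 with DESeq2, and -1.96 and -4.00 with only the libraries compared.

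The passage difference of ADGRF4 was -0.89 with edgeR's default filter (adjusted p = 0.514) and -0.92 with DESeq2 (0.0950); the cause was not tested. Leaving out 1 library it was -1.27 to -0.71. It was lost without replicate 1 or 2 of Neg-siRNA (300 mOsm) (0.104 and 0.107), Nfat5-1-siRNA (0.301 and 0.275) or Nfat5-2-siRNA (0.0650 and 0.0685).

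Leaving out each library in turn, where a lone sample is assumed to vary like the other groups, the rise was 8.41 to 12.87 for SDCBP2, 12.38 to 12.60 for PRSS35, 3.68 to 4.02 for KANK3 and 1.72 to 2.87 for ADGRF4. The lowest and the highest rise of SDCBP2 came without replicate 1 and replicate 2 of Neg-siRNA (300 mOsm). The fall with Nfat5-1-siRNA was -4.17 to -3.92, -2.48 to -1.77, -4.34 to -4.10 and -3.69 to -2.22. That with Nfat5-2-siRNA was -4.56 to -4.38, -2.13 to -1.81, -4.20 to -3.85 and -4.31 to -3.23. Between the siRNAs the differences were -0.60 to -0.35 for SDCBP2, -0.25 to 0.45 for PRSS35, 0.07 to 0.32 for KANK3 and -1.53 to 0.017 for ADGRF4. PRSS35 turned to -0.25 and -0.044, and ADGRF4 to 0.017. Between passages SDCBP2 was at -0.086 to 0.085, turning to 0.085 without either Nfat5-1-siRNA library and to 0.0062 and 0.0064 without either Nfat5-2-siRNA library. PRSS35 was at -0.47 to -0.21 and KANK3 at 0.12 to 0.25.

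The counts of genes called moved more. With the replicate block they were 6566 at 500 mOsm (4077 without it), 4264 with Nfat5-1-siRNA (1572), 5168 with Nfat5-2-siRNA (2390) and 979 between the siRNAs (8). The block changed no call of the 4 genes between the siRNAs. With Benjamini-Hochberg adjustment the counts were 7033, 4033, 5250 and 186, and 1572 between passages (653). Without a filter 2866, 3760 and 337 genes were called with Nfat5-1-siRNA, with Nfat5-2-siRNA and between the siRNAs. DESeq2 called 2682 with Nfat5-1-siRNA and 213 between the siRNAs, where its size factors in edgeR gave 34. With the libraries compared alone edgeR called 1565 with Nfat5-2-siRNA and 0 between the siRNAs (2702 at an unadjusted p under 0.05). The default filter gave 0 there (2737 unadjusted) and 101 between passages. Leaving out 1 library gave 2384 to 4157 at 500 mOsm, 159 to 1620 with Nfat5-1-siRNA, 952 to 2272 with Nfat5-2-siRNA, 0 to 38 between the siRNAs and 315 to 681 between passages. The 159 came without replicate 2 of Nfat5-1-siRNA, where 3 libraries were compared. The search for motifs in promoters was not run.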

Other observations

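The 4 genes were not the only ones with falls of this size. The 285 genes ranked above were called higher at 500 mOsm and lower with both Nfat5-siRNAs. They also moved in these directions within each passage and had at least 10 CPM in Neg-siRNA (500 mOsm). Among them ENSCAFG00000038731 had the largest mean fall, -4.42 on the log2 scale, against a rise of 1.88. ENSCAFG00000033145 ranked 4 by the fall, with -4.00 against a rise of 1.45, so that its fall was 277% of its rise, the highest such share of the 285. The corresponding shares were 108% for KANK3 and 147% for ADGRF4, which ranked 80 and 31. RARRES2, which encodes the secreted protein chemerin, ranked 5 by the fall, with -3.78 against a rise of 4.46. PRSS35 had the lowest share of the 285, 16.4%, next to SLC6A12, the betaine carrier, with 20.3%, although the share of PRSS35 depends on the prior count of the fit. These genes were picked for their values in these comparisons, and no test of the differences between them was made.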
